A study of Mus musculus with 2 samples.

Results

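Chromatin accessibility was examined at 7 genes that encode subunits of the GABA-A receptor, 4 of the alpha class (Gabra2, Gabra3, Gabra4 and Gabra5), 2 of the beta class (Gabrb1 and Gabrb2) and 1 of the gamma class (Gabrg1). The genes are a named set out of 21911 protein-coding genes counted, and were proposed with earlier results of these data known. For each gene, fragments over the gene body and the 2 kb upstream were counted in called nuclei with over 20% of their fragments in peaks, and given as counts per 1000000 fragments (CPM) of the same nuclei.

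The mice were C57BL/6J males of 8 to 12 weeks of age. In stroke mice a filament blocked the middle cerebral artery for 1 h before blood flow was restored, while in sham mice it was introduced but not left to block the vessel. Tissue was taken at 48 h without the olfactory bulbs and cerebellum. Each library was made from frozen tissue of 4 mice combined, the brain for sham and only the hemisphere on the side of the occlusion for stroke, so no difference between conditions had a replicate, and the condition cannot be told apart from the part of the brain that was taken. In single-nucleus ATAC sequencing the Tn5 transposase cuts open chromatin and every fragment carries the barcode of its nucleus. Accessibility of a gene is not a measure of its RNA or of receptor on the membrane.

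The GABA-A receptor is a pentameric chloride channel opened by GABA, the main inhibitory transmitter of the forebrain. Alpha and beta subunits form the GABA binding sites, and a gamma subunit next to an alpha subunit forms the binding site of benzodiazepines and takes part in clustering receptors at synapses. The alpha subunit sets much of a receptor's kinetics and location: alpha2 and alpha3 are mostly synaptic, alpha4 is largely extrasynaptic and pairs with delta, and alpha5 is known for extrasynaptic receptors of hippocampal and cortical pyramidal cells. The gamma1 subunit is a less common gamma subunit of a few subcortical regions and of glia.

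Gabrg1, Gabra2, Gabra4 and Gabrb1 lie next to one another on chromosome 5. On mm10 with GENCODE M21 gene models, Gabrg1 spans 70751047 to 70842617, Gabra2 spans 70957597 to 71095849 and Gabra4 spans 71569749 to 71658308, all on the minus strand, and Gabrb1 spans 71658113 to 72149037 on the plus strand. The starts of Gabra4 and Gabrb1 are 195 bases apart on opposite strands, and 19.6% of the Gabra4 fragments and 5.01% of the Gabrb1 fragments were counted for both genes. Gabra5 lies on chromosome 7 from 57407672 to 57510059 on the minus strand. ATAC fragments carry no strand, so values of overlapping genes are uncertain as to which gene they belong to, and most Gabra5 fragments cannot be assigned to it alone. Gabra3 is on chromosome X (72432681 to 72656848, minus strand) and Gabrb2 on chromosome 11 (42419757 to 42629028, plus strand).

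Sequences of 7 elements named in the results are given first. They are 300 bases each, read from GRCm38.p6 (mm10) in the direction of the gene, and the promoters are RefSeq windows of 250 bases before to 50 bases after a start. Capitals mark matches to 5 motifs searched on both strands: the GC box GGGCGG, the cyclic AMP response element TGACGTCA, the TATA box TATAAA, the E-box CAGCTG and the AP-1 motif TGACTCA. The promoters of Gabra2, Gabra3 and Gabrg1 are shown because they hold the highest share of G and C, no CpG, and the lowest share of G and C among the 11 promoters of these genes matched in RefSeq.
Gabra2 promoter, chr5:71095800-71096099, minus strand: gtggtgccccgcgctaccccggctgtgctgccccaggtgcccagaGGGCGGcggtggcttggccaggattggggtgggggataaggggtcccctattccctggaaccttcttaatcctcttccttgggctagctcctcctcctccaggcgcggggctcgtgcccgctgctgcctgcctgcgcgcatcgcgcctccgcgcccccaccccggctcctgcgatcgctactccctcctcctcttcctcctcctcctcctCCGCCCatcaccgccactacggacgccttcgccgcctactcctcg
Gabra3 promoter, chrX:72656870-72657169, minus strand: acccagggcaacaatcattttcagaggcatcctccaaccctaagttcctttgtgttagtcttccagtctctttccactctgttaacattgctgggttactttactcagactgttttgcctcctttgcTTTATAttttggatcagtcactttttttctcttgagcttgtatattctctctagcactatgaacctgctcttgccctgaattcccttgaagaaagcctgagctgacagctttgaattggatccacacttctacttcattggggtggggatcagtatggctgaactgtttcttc
Gabrg1 promoter, chr5:70842568-70842867, minus strand: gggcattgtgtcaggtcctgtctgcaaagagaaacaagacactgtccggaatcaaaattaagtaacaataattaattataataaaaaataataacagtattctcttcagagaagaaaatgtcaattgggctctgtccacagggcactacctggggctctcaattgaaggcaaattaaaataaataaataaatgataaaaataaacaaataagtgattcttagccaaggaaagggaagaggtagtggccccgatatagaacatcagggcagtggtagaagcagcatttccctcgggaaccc
The intronic sequences are the centres of 500 base windows whose levels by class are given further on. Those at 100.002, 259.25 and 87.1 kb were taken as the window outside the promoter with the highest CPM in a neuronal class, and that at 75.25 kb was chosen after its values in astrocyte nuclei were seen.
Gabra2 intronic window 100.002 kb from the start, chr5:70995697-70995996, minus strand: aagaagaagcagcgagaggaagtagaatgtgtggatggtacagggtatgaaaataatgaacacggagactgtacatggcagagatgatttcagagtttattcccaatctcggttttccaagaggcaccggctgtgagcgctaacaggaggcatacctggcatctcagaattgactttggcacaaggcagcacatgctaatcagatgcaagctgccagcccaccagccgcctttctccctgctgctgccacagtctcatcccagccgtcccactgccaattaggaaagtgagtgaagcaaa
Gabrb1 intronic window 259.25 kb from the start, chr5:71917213-71917512, plus strand: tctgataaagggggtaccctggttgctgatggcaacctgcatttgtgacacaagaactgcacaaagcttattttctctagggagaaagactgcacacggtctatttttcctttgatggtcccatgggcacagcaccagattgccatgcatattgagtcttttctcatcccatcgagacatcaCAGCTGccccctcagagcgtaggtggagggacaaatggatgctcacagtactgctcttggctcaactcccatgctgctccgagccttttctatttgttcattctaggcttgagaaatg
Gabrb1 intronic window 75.25 kb from the start, chr5:71733213-71733512, plus strand: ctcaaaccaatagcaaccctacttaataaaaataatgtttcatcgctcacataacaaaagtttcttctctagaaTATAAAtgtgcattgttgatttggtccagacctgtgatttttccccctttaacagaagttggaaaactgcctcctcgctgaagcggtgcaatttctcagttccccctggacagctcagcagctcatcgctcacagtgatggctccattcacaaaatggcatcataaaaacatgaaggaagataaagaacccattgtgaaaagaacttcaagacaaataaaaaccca
Gabra5 intronic window 87.1 kb from the start, chr7:57422772-57423071, minus strand: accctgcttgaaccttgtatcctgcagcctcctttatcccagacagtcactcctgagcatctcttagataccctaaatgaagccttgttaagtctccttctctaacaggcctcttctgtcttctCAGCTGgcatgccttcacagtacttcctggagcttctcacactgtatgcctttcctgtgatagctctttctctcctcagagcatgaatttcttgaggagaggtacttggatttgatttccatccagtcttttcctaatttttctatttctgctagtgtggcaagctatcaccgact
The Gabra2 promoter was 70% G and C with 2 GC boxes, the Gabra3 promoter was 43% G and C, held a TATA box and had an observed over expected CpG ratio of 0, and the Gabrg1 promoter was 38.3% G and C with none of the 5 motifs. Over 32851 promoters of the same length, 35.7% held a GC box, 13.6% a TATA box, 16.3% an E-box, 5.2% an AP-1 motif and 1.79% a cyclic AMP response element. The Gabra5 window and the Gabrb1 window at 259.25 kb each held 1 E-box, and the Gabrb1 window at 75.25 kb held 1 TATA box. Such matches are common: 17.4% of 11750 open windows of other genes held an E-box, against 11.1% for the TATA box, 29.8% for the GC box, 6.83% for the AP-1 motif and 0.834% for the cyclic AMP response element. A match of letters is not a bound site.

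The sham library held 76959104 fragments and 6979 called barcodes, of which 6817 nuclei were kept, and the stroke library held 96465679 fragments and 8740 called barcodes, of which 5054 were kept. The kept nuclei had a median of 10356 fragments in sham and 9898 in stroke, and a median of 38.8% and 33.2% of fragments in peaks. Of the kept barcodes, 42 occurred in both libraries. Nuclei were sorted into 13 classes by the fragments over marker genes, summed over each nucleus and its nearest neighbours, with the GABA receptor loci left out of the bins that set the neighbours. A class is therefore a range of a score and not a cell type. Markers raised at least 1.5-fold in their own class ranged from 7 of 11 in the upper layer class to 16 of 16 in the spiny projection neuron (SPN) class. The same markers set the gate, so these counts are not independent support for the name of a class. The nuclei gated on vascular markers had medians of 1331 and 2657 fragments and none of those markers among their 10 leading genes, so the class was left unnamed and is not described. The upper layer, other glutamatergic and microglia/myeloid classes also had none of their own markers among their 10 leading genes. They kept their names because their medians, from 4924 to 15466 fragments, lay above those of the vascular gate. Of their markers, 7 of 11, 9 of 12 and 25 of 25 were raised, but so were 21 of 24 in the vascular gate. The raised markers thus give no reason to keep these names and drop the vascular one.

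The glutamatergic classes held 2915 sham and 1520 stroke nuclei: upper layer 1073 and 418, deep layer 623 and 320, and other glutamatergic 1219 and 782. GABAergic classes held 1907 sham and 1207 stroke nuclei: SPN 498 and 221, Lhx6 interneuron 342 and 203, Adarb2 interneuron 243 and 147, Zic GABAergic 262 and 217, and other GABAergic 562 and 419. There were 500 and 630 astrocyte nuclei, and 1009 and 869 nuclei stayed ungated. Many nuclei had a score within 10% of a cut: 38.8% of sham and 48.1% of stroke other glutamatergic nuclei, 24.3% and 41.9% of upper layer nuclei, 32.6% and 36.0% of other GABAergic nuclei, 4.62% and 21.3% of SPN nuclei, and 2.6% and 2.54% of astrocyte nuclei. The range of a class may thus differ between the libraries.

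The 4 alpha genes did not share a leading class. Orders of levels, and the words highest and lowest, are over the 9 classes with enough fragments in each library. The oligodendrocyte, oligodendrocyte precursor and microglia/myeloid classes stand outside these orders. Some of their levels were lower, such as 93.5 and 106 CPM of Gabrb1 and 24.8 and 25.1 CPM of Gabra4 in oligodendrocyte nuclei. In sham microglia/myeloid nuclei Gabrb2 stood higher than in any ordered class, at 178 CPM from 31 fragments. Gabra2 was highest in upper layer nuclei, with 93.2 CPM (88.1 to 98.5) in sham and 92.2 CPM (84.1 to 101) in stroke, where brackets give exact 95% Poisson intervals. These and all later intervals cover counting error only, and fragments without molecular identifiers are not fully independent molecules. SPN nuclei had 79.6 and 85.1 CPM of Gabra2 in sham and stroke, and other glutamatergic nuclei had 85.4 and 73.3 CPM. Zic GABAergic nuclei followed with 71.0 and 65.7 CPM, other GABAergic nuclei with 57.1 and 66.6 CPM, and Adarb2 interneuron nuclei with 53.0 and 64.2 CPM. The lowest Gabra2 levels were in deep layer nuclei (49.5 and 43.8 CPM), astrocyte nuclei (39.5 and 50.3 CPM) and Lhx6 interneuron nuclei (38.8 and 36.2 CPM). No neighbouring pair in this order was separated beyond counting error in both libraries, although the ends of the order were far apart.

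Upper and deep layer nuclei differed in opposite directions at Gabra2 and Gabra5. Here a gene counts as different between classes when its ratio was past 1.5-fold the same way in both libraries, among genes with at least 200 fragments over the pair of classes in each library. Gabra2 was 1.88-fold (1.67 to 2.13) higher in upper than in deep layer nuclei of sham and 2.1-fold (1.75 to 2.54) higher in stroke. Gabra5, the gene of the extrasynaptic alpha5 subunit, went the other way, at 0.637 (0.569 to 0.714) in sham and 0.574 (0.483 to 0.682) in stroke. These 2 were the members past the fold among the 6 compared, and 5.88% of all genes were. The other 4 were Gabra3 (1.28 and 1.42), Gabra4 (1.01 and 1.47), Gabrb1 (0.896 and 1.03) and Gabrb2 (1.13 and 0.947), all within the fold. With the promoter alone as the counted region, the ratio was 1.21 in sham and 1.89 in stroke for Gabra2, and 0.995 and 0.618 for Gabra5.

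Between SPN and Lhx6 interneuron nuclei, Gabra2 was the 1 member of 5 compared that was past the fold, where 16.6% of all genes were, so such a difference was common in this comparison. Its ratio of SPN over Lhx6 was 2.05 (1.71 to 2.47) in sham and 2.35 (1.82 to 3.05) in stroke. Spiny projection neurons are the output cells of the striatum, and Lhx6 marks interneurons of the medial ganglionic eminence lineage. Gabrb1 had SPN over Lhx6 ratios of 1.1 and 1.47, and Gabrb2 of 0.875 and 0.68. Between Lhx6 and Adarb2 interneuron nuclei, 0 of 4 members were past the fold in both libraries, with 5.49% of all genes past it. Between Zic GABAergic and other GABAergic nuclei, 0 of 4 were past it, with 1.24% of all genes.

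Gabra3, whose subunit is found at synapses of several brain regions, had low counts everywhere. Other glutamatergic nuclei had 26.8 CPM of Gabra3 in sham and 28.4 CPM in stroke, and upper layer nuclei had 24.2 and 28.1 CPM. Values in other GABAergic, Lhx6 interneuron and Zic GABAergic nuclei lay between 21.9 and 25.4 CPM, deep layer nuclei had 18.8 and 19.8 CPM, SPN nuclei 15.2 and 15.5 CPM, and Adarb2 interneuron nuclei 13 and 14.9 CPM. Astrocyte nuclei were lowest with 9.25 CPM (6.52 to 12.8) and 10.9 CPM (8.4 to 14.0). Male mice carry a single X chromosome, so the level of this X-linked gene is not comparable with those of the others even per kb.

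Gabra4 was highest in SPN nuclei, with 71.7 CPM (65.4 to 78.4) in sham and 65.7 CPM (56.1 to 76.3) in stroke. Lhx6 interneuron nuclei had 61.9 and 65.6 CPM, and upper layer nuclei had 61.6 and 62.7 CPM, so the leading classes were not separated. Upper layer nuclei did exceed the class ranked next, other glutamatergic nuclei (51.9 and 53.6 CPM), beyond counting error in both libraries. The libraries differed most in deep layer nuclei, with 60.9 CPM in sham and 42.7 CPM in stroke, and in Adarb2 interneuron nuclei, with 39.5 and 60.6 CPM. Gabra4 levels were lowest in Zic GABAergic (37.3 and 33.8 CPM), other GABAergic (32.8 and 34.8 CPM) and astrocyte nuclei (32.3 and 35.6 CPM).

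Gabra5 was highest in deep layer nuclei (81.8 and 83.2 CPM) and Adarb2 interneuron nuclei (86.2 and 75.6 CPM), which did not differ beyond counting error. Zic GABAergic nuclei had 82.0 and 61.2 CPM, Lhx6 interneuron nuclei 70.7 and 69.4 CPM, and other glutamatergic nuclei 68.9 and 67.2 CPM. Other glutamatergic nuclei lay above SPN nuclei (58.7 and 52.8 CPM) beyond counting error in both libraries. Upper layer nuclei, at 52.2 and 47.7 CPM, lay above astrocyte nuclei at 31.3 and 21.2 CPM in the same way. Because fragments carry no strand, this order cannot be assigned to Gabra5 alone.

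**Figure D1:**
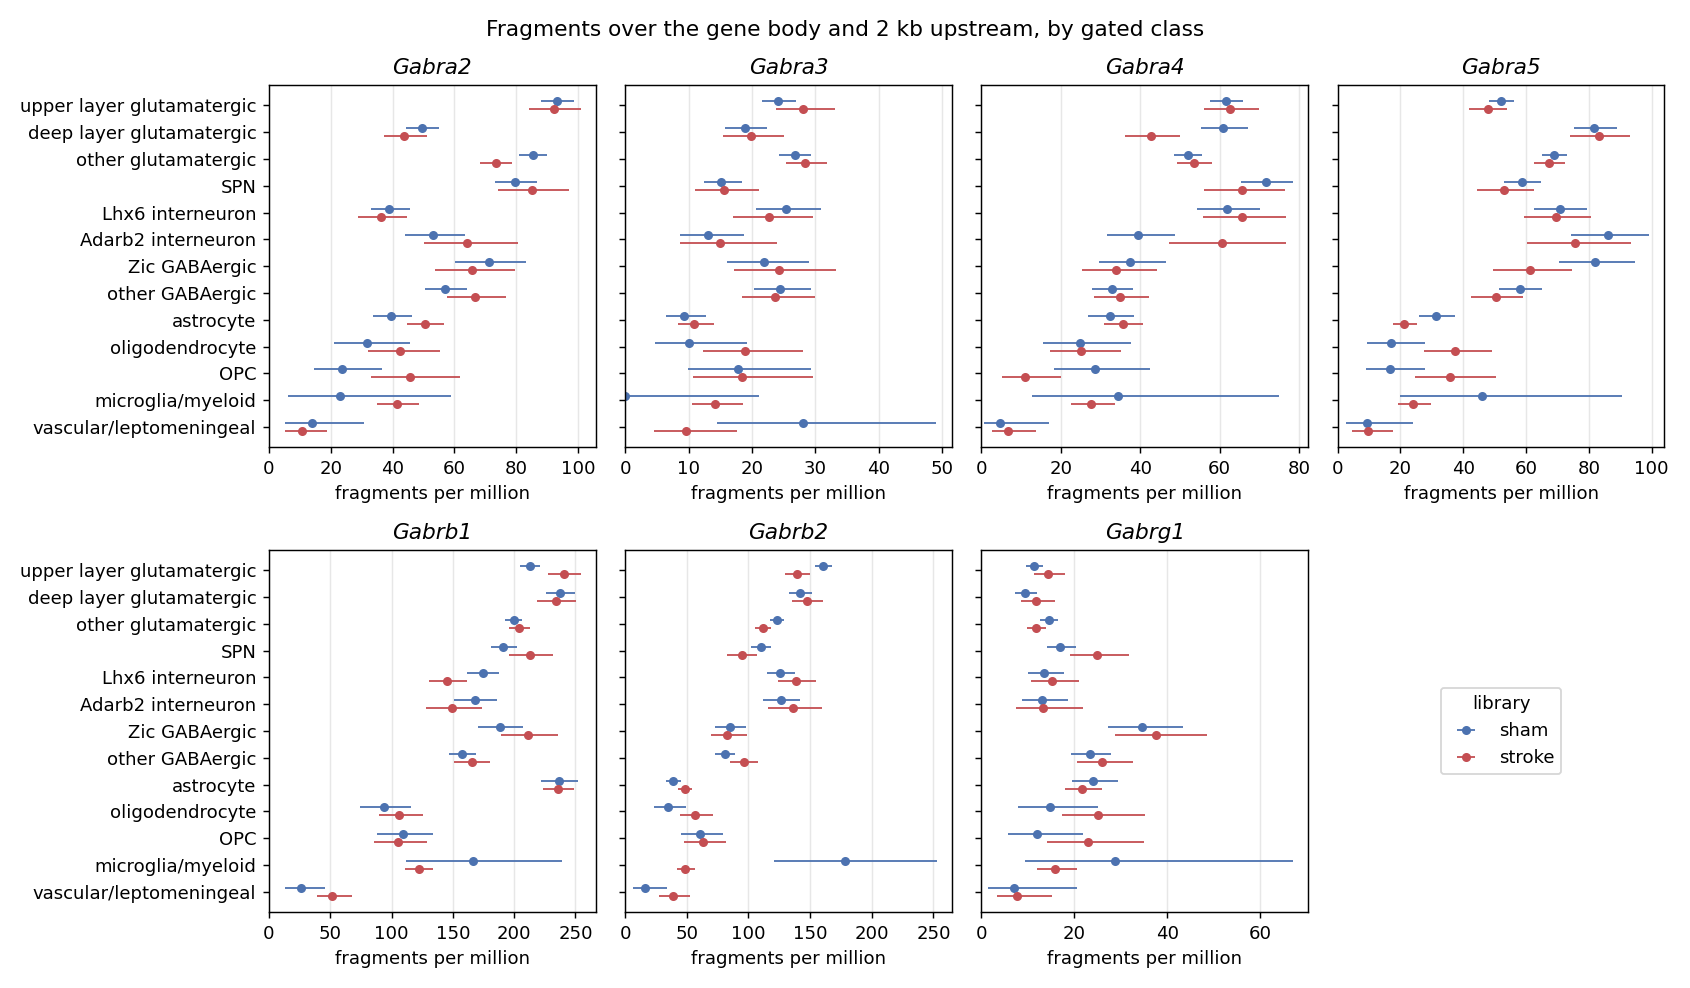
Accessibility of the 7 genes (horizontal axes, CPM) in the classes of nuclei (rows), as sham and stroke points with exact 95% Poisson intervals. Gabra2 is high in upper layer nuclei (93.2 and 92.2 CPM) and low in deep layer nuclei (49.5 and 43.8 CPM), Gabra5 has the opposite order (52.2 and 47.7 against 81.8 and 83.2 CPM), and the sham and stroke points of a class mostly lie close together.

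The beta genes had the highest counts of the 7 over all kept nuclei, at 199.7 and 192 CPM for Gabrb1 and 117 and 101 CPM for Gabrb2 in sham and stroke. Gabrb1 had 236 CPM in astrocyte nuclei of both libraries, 237 and 234 CPM in deep layer nuclei, and 213 and 241 CPM in upper layer nuclei. SPN nuclei had 191 and 213 CPM of Gabrb1, other glutamatergic nuclei 200 and 204 CPM, and Zic GABAergic nuclei 189 and 212 CPM. The lowest levels were in other GABAergic (158 and 165 CPM), Lhx6 interneuron (174 and 146 CPM) and Adarb2 interneuron nuclei (168 and 149 CPM). Gabrb1 is the only member whose mean level over the libraries was highest in astrocyte nuclei, although astrocyte, deep layer and upper layer nuclei were not separated.

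Gabrb2, which encodes the beta subunit of the most abundant forebrain receptor, was highest in the classes gated on layer markers. It had 161 and 140 CPM in upper layer and 142 and 147 CPM in deep layer nuclei. Lhx6 interneuron nuclei had 126 and 139 CPM, Adarb2 interneuron nuclei 126 and 136 CPM, other glutamatergic nuclei 123 and 112 CPM, and SPN nuclei 110 and 94.4 CPM. From upper layer down to other glutamatergic nuclei, no neighbouring pair in this order was separated beyond counting error in both libraries. Astrocyte nuclei had 38.8 CPM (32.9 to 45.4) in sham and 48.4 CPM (42.9 to 54.4) in stroke, below every neuronal class in both libraries.

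Gabrg1 was highest in Zic GABAergic nuclei, with 34.6 CPM (27.3 to 43.3) in sham and 37.6 CPM (28.6 to 48.5) in stroke, above the class ranked next, other GABAergic nuclei (23.3 and 26 CPM), beyond counting error in both libraries. The Zic gate rests on a list of 7 genes, the Zic transcription factors with Magel2 and Ndn. Astrocyte nuclei had 24.0 and 21.7 CPM of Gabrg1 and SPN nuclei 17 and 24.9 CPM. The 3 glutamatergic classes had from 9.35 to 14.5 CPM. Over all GABAergic against all glutamatergic nuclei, Gabrg1 was 1.56-fold (1.36 to 1.80) higher in sham and 1.91-fold (1.59 to 2.29) higher in stroke, the single member of 7 past the fold, with 7.71% of all genes past it, and 1 of 7 does not set the members apart. Under a stricter gate the ratio in sham was 1.48, and with the promoter alone it was 1.17.

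Of the 9 ordered classes, the same class was highest in both libraries for 4 of the 7 genes, namely Gabra2, Gabra3, Gabra4 and Gabrg1. Between genes, levels can be compared only per kb. Over all neuronal nuclei the levels per kb were 0.629 and 0.604 CPM for Gabra5, 0.614 and 0.588 for Gabra4, 0.605 and 0.564 for Gabrb2, 0.533 and 0.497 for Gabra2, 0.404 and 0.415 for Gabrb1, and 0.159 and 0.175 for Gabrg1, in sham and stroke. The X-linked Gabra3, with 0.101 and 0.109 CPM per kb, is not ranked among them. The median gene had 0.660 and 0.649 CPM per kb, above each of these values. The gene bodies are long, at 88.6 kb for Gabra4 to 491 kb for Gabrb1, and a promoter adds less to the mean of a long region.

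In astrocyte nuclei the members parted into 2 sets. Against all neuronal nuclei, Gabrb2 (0.303 [0.257 to 0.356] in sham and 0.406 [0.358 to 0.459] in stroke), Gabra5 (0.476 and 0.336) and Gabra3 (0.406 and 0.444) were past the fold in both libraries, 3 of 7 members. The share over all genes was 28.2%, so such a difference was common in this comparison. Gabra2 (0.529 and 0.722) and Gabra4 (0.581 and 0.668) were also lower in astrocyte nuclei but not past the fold in both libraries. Gabrb1 was 1.19 (1.11 to 1.27) and 1.15 (1.09 to 1.22), and Gabrg1 was 1.62 (1.3 to 2.00) and 1.32 (1.08 to 1.61). Only these 2 of the 7 genes had ratios above 1 in both libraries. With the promoter alone as the counted region the split was another: Gabrb1 was at 0.968 and 0.862, Gabra2 at 0.986 and 1.36, and Gabra4 at 1.03 and 0.933, while Gabrg1 stayed above 1 (1.55 and 1.18).

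The rest of the receptor system was described by a list of 26 genes: 12 other GABA-A subunits, 10 anchoring and trafficking genes, 2 GABA-B subunits and 2 chloride transporters. In astrocyte against neuronal nuclei, 11 of 23 compared were lower past the fold in both libraries and 0 were higher, beside 28.2% of all genes past it in either direction. They included Slc12a5, the neuronal chloride exporter KCC2 (0.287 and 0.295). The median log2 ratio of the 23 was -0.65 in sham and -0.52 in stroke, beside -0.92 and -0.58 for the members and -0.01 and 0.01 for all genes compared. In upper over deep layer nuclei, Plcl1, a binding partner of the receptor's trafficking machinery, was higher (1.90 in both libraries), 1 of 17 beside 5.88% of all genes. In GABAergic over glutamatergic nuclei, Gabrr1 was higher (1.69 and 1.54) and the GABA-B subunit gene Gabbr2 was lower (0.597 and 0.586), 2 of 22 beside 7.71%. SPN nuclei had less of Iqsec3, a gephyrin partner (0.382 and 0.440), and of Gabbr2 (0.299 and 0.403) than Lhx6 interneuron nuclei, 2 of 15 beside 16.6%. The last 3 counts are so near the shares over all genes that they do not set the list apart.

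Fragments within each gene lay unevenly. Windows of 500 bases were called open where they held at least 4 times the mean of their gene's windows and at least 50 fragments, over all kept nuclei. There were 74 such windows, namely 31 in Gabrb1, 11 in Gabra2, 10 in Gabrb2, 7 in Gabra3, 6 each in Gabra4 and Gabra5, and 3 in Gabrg1. Around the neighbouring starts of Gabra4 and Gabrb1, 8 of these windows overlap one of the other gene and are counted for both. In each gene the window highest over the mean was at the promoter. Gabrg1 was the extreme case: its 3 open windows all lay at the promoter, the highest at 42.3 times the mean, and together they held 42.2% of the fragments over its windows. The 2 kb around its start had 14.1 CPM in Zic GABAergic sham nuclei and 17.2 CPM in stroke. All glutamatergic nuclei had 7.3 and 6.72 CPM there. The AT-rich 300 bases printed above held only 38 fragments over all kept nuclei. They lie inside an open window of 147 fragments, 10.7 times the mean, and the open windows to either side of that window held 580 and 357 fragments.

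The CpG-rich Gabra2 promoter lay above the median promoter per kb in every neuronal class and in astrocyte nuclei. It was nearest to it in stroke Lhx6 interneuron nuclei, with 13 fragments at the 53.1 percentile of promoters. Its 2 kb around the start held 20.5 and 17.2 CPM in Zic GABAergic nuclei, 17.7 and 15.2 CPM in SPN nuclei, 12.2 and 15.3 CPM in upper layer nuclei, 10.1 and 8.10 CPM in deep layer nuclei, and 12.3 and 16.1 CPM in astrocyte nuclei. The Gabra2 promoter thus did not have the order of the whole gene, in which astrocyte nuclei were among the lowest. The 2 kb around the Gabra3 start held 1.85 and 1.94 CPM over all neuronal nuclei and 2 and 1 fragments in astrocyte nuclei of sham and stroke. The 300 bases of Gabra3 printed above held 21 fragments over all kept nuclei.

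Single windows outside the promoter also differed between classes. For each gene with an open window outside the promoter, the window with the highest CPM in a neuronal class was taken, and 5 of these 6 lay in no exon, the exception being a Gabra4 window 1.31 kb from the start. Since they were chosen by level in a class, their values are a description. The Gabra2 window 100.002 kb from the start had 6.61 CPM (88 fragments) and 7.76 CPM (40 fragments) in upper layer nuclei, 4.24 and 3.35 CPM in deep layer nuclei, and 4.32 and 4.27 CPM in SPN nuclei. In Lhx6 interneuron nuclei the same window had 1 and 2 fragments (0.259 and 0.842 CPM). That is the low class of the whole gene as well.

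The Gabrb1 window 259.25 kb from the start was open mostly in glutamatergic nuclei. It had 9.39 CPM (125 fragments) and 8.35 CPM (43 fragments) in upper layer nuclei, 6.89 and 7.35 CPM in other glutamatergic nuclei, and 2.34 and 3.07 CPM in deep layer nuclei. Each of the 5 GABAergic classes had at most 2 fragments per library there. Over all GABAergic nuclei it had 0.401 and 0.565 CPM, and in astrocyte nuclei 1.75 and 1.04 CPM. The whole Gabrb1 gene did not show this pattern, with GABAergic over glutamatergic ratios of 0.836 and 0.809.

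Deep layer nuclei led at the windows of Gabrb2 and Gabra5. The Gabrb2 window 172.75 kb from the start had 6.87 and 5.86 CPM in deep layer nuclei beside 1.80 and 1.55 CPM in upper layer nuclei. The Gabra5 window 87.1 kb from the start had 8.77 and 3.91 CPM in deep layer nuclei, 2.71 and 0.582 CPM in upper layer nuclei and 3.93 and 2.07 CPM in other glutamatergic nuclei. At the Gabra4 window, SPN nuclei had 5.37 and 4.66 CPM, beside 1.95 and 1.55 CPM in upper layer nuclei. The Gabra3 window 93.9 kb from the start had 24 and 6 fragments in upper layer nuclei and 27 and 7 in other glutamatergic nuclei, and 0 in each GABAergic class. A count of 0 allows up to 3 fragments by the one-sided 95% Poisson limit, which is lower than the upper bound of the intervals printed elsewhere.

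**Figure D2:**
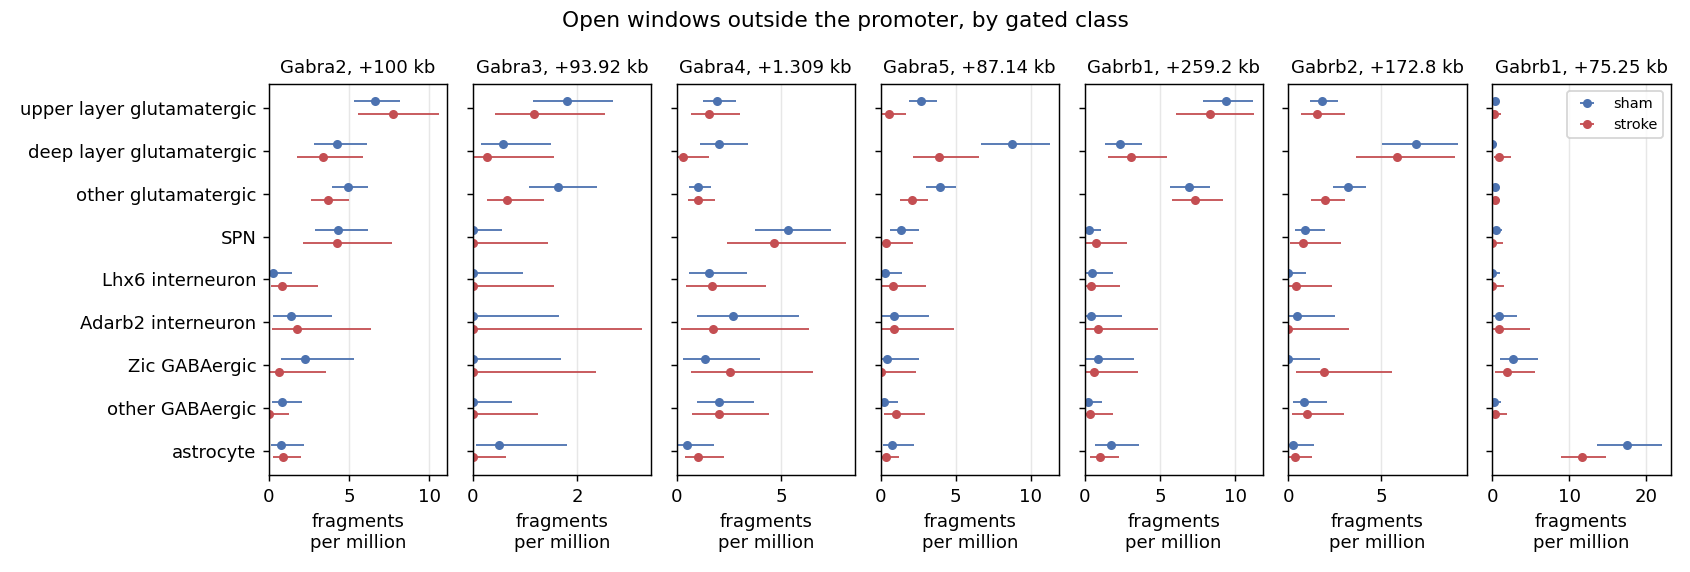
Accessibility (horizontal axes, CPM, with exact 95% Poisson intervals) of the chosen open window outside the promoter of 6 genes and of the astrocyte window of Gabrb1 (last panel), by class (rows) and library, with a scale of its own in each panel. Gabrb1 is at 9.39 and 8.35 CPM in upper layer nuclei with the GABAergic classes near 0, and the Gabra5 window falls from 8.77 CPM in sham to 3.91 CPM in stroke deep layer nuclei.

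Astrocyte nuclei had open windows of their own in Gabrb1. A window 75.25 kb from the start, singled out after its values were seen, had 17.5 CPM (13.6 to 22.1, 70 fragments) in sham astrocyte nuclei and 11.6 CPM (9.01 to 14.8, 67 fragments) in stroke astrocyte nuclei. Over all glutamatergic nuclei it had 0.273 and 0.413 CPM, and over all GABAergic nuclei 0.602 and 0.471 CPM. The astrocyte over neuronal ratio was 45.1 (27.6 to 76.4) in sham and 26.8 (14.7 to 52.9) in stroke. The window next to it, centred at 74.75 kb, had a ratio of 30.2 (20.2 to 46.3) over both libraries. A second site, at 410.75 and 411.25 kb, had ratios of 5.48 and 7.6, with 10.0 and 10.4 CPM in astrocyte nuclei of sham and stroke at the first of these windows and 2.94 and 2.22 CPM over all glutamatergic nuclei. The windows at 42.75 and 43.25 kb, near a second RefSeq start of Gabrb1, had ratios of 2.29 and 3.43.

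Open windows with at least 200 fragments in astrocyte and neuronal nuclei together numbered 35 (3 of them in overlaps of Gabra4 with Gabrb1), which left out those at 74.75, 75.25 and 411.25 kb in Gabrb1. Of the 35, 6 were at least 1.5-fold higher in astrocyte nuclei and 24 at least 1.5-fold lower. In open windows of other genes 58.4% were past the fold, 29.7% higher and 28.7% lower. The median ratio was 0.288 for the members' windows and 1.16 for the others. Gabrb1 had 4 higher and 6 lower of 11, Gabra2 had 1 higher and 6 lower of 8, Gabra5 had 5 lower of 6, and Gabrb2 had 6 lower of 6. The whole Gabrb1 gene, with ratios of 1.19 and 1.15, thus held windows far to either side of that value.

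**Figure D3:**
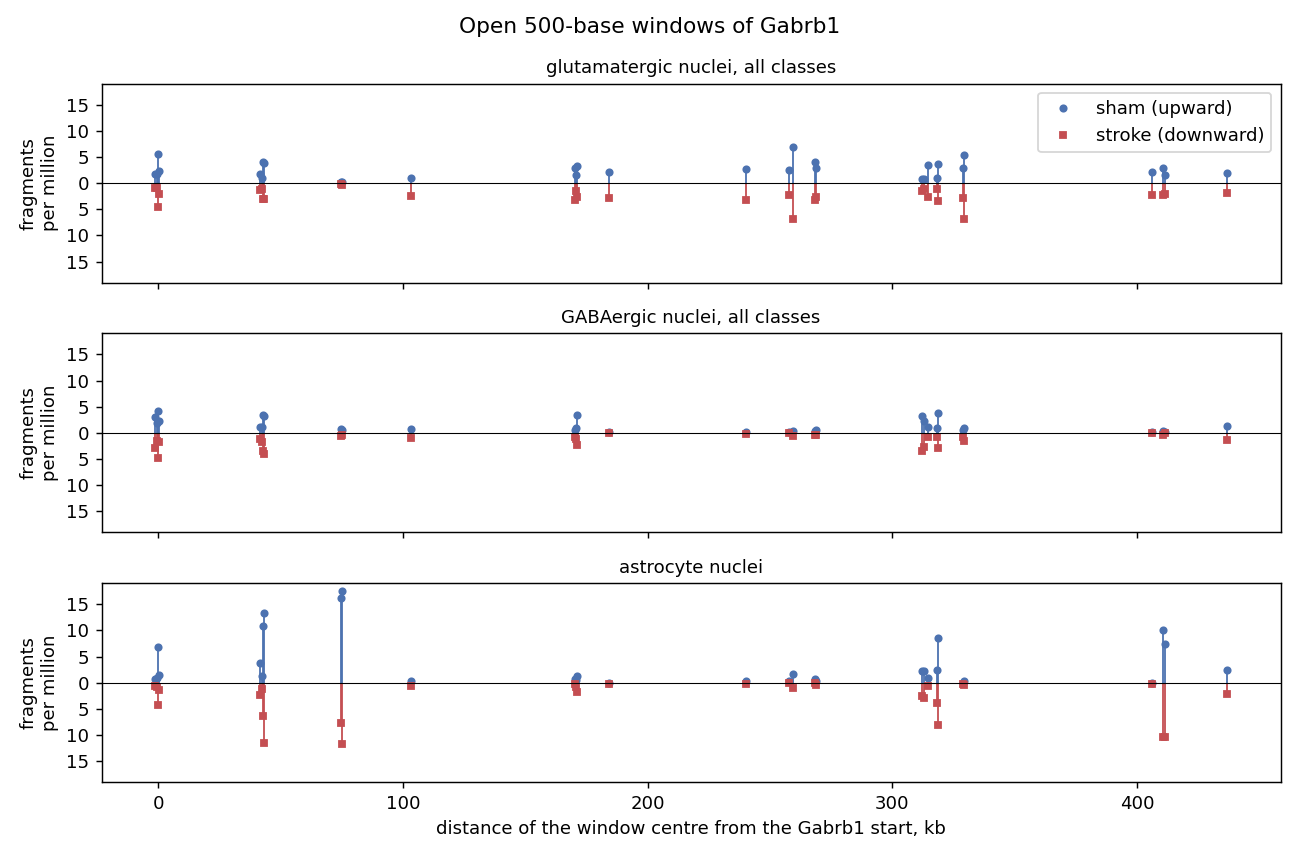
CPM (vertical axes) of the open 500 base windows of Gabrb1 by distance from the gene start (horizontal axis, kb) in all glutamatergic, all GABAergic and astrocyte nuclei, with sham drawn upward and stroke downward. Astrocyte nuclei reach 17.5 and 11.6 CPM at 75.25 kb, where glutamatergic nuclei have 0.273 and 0.413 CPM, and glutamatergic nuclei reach 6.95 and 6.82 CPM at 259.25 kb.

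Between stroke and sham, levels of the members moved little within a class. With the same fold of 1.5 and at least 200 fragments over both libraries, 51 pairs of a member and a class could be compared and 1 was past the fold. The counts by class were 0 of 7 in upper layer nuclei (3.14% of all genes past the fold), 0 of 6 in deep layer nuclei (3.51%), 0 of 7 in other glutamatergic nuclei (1.2%), 0 of 5 in SPN nuclei (5.78%), 0 of 5 in Lhx6 interneuron nuclei (4.17%) and 0 of 3 in Adarb2 interneuron nuclei (7.31%). They were 0 of 4 in Zic GABAergic nuclei (4.63%), 0 of 5 in other GABAergic nuclei (5.20%), 0 of 6 in astrocyte nuclei (6.0%), 0 of 1 in oligodendrocyte nuclei (16.0%) and 1 of 2 in microglia/myeloid nuclei (33.7%). At these shares of all genes a count of 0 or 1 in so few members does not set them apart. The median log2 ratio of all genes ran from -0.15 in other GABAergic nuclei to -0.04 in oligodendrocyte nuclei over these classes.

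The pair past the fold was Gabrb2 in microglia/myeloid nuclei, with a ratio of 0.274 (0.186 to 0.415). It rested on 31 fragments in 21 sham nuclei (178 CPM) against 178 fragments in 248 stroke nuclei (48.7 CPM). The sham level lay above that of every ordered class. The microglia/myeloid class holds resident microglia and any infiltrating myeloid cells. Glutamatergic markers in this class stood at 0.468 of the level in all kept nuclei in sham and 0.438 in stroke, and GABAergic markers at 0.792 and 0.826. The myeloid list itself stood at 3.38 and 2.86. Over the 13 marker lists, the Lhx6 interneuron list moved most in proportion between the libraries, from 0.751 (42 fragments in sham) to 1.205. The oligodendrocyte precursor list came next, from 1.31 to 0.949, and the Adarb2 interneuron list went from 0.908 to 1.09. The astrocyte list went from 1.24 to 1.07. With the study's filter on fragments in peaks added the ratio was 0.440 over 18 and 169 fragments, under the stricter gate it was 0.204, and without the deepest 5% of nuclei it was 0.130, each over fewer fragments than the minimum for a comparison. At thinned depth it was 0.398 (0.157 to 1.29), and under the gate without neighbours, chosen after seeing the data, it was 0.490 (0.392 to 0.613), still past the fold. The part of other cells' chromatin in this value was not tested.

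Nearest to the fold without passing it were Gabra5 in astrocyte nuclei, 0.677 (0.523 to 0.876), and Gabra4 in deep layer nuclei, 0.701 (0.579 to 0.846). Under the stricter gate the latter was past the fold, at 0.591 (0.436 to 0.790). Gabra5 had 125 fragments in sham and 122 in stroke astrocyte nuclei, a class in which the median gene had a ratio of 0.933. Intervals clear of 1 also occurred for Gabra2 in astrocyte nuclei (1.27, 1.05 to 1.56) and other glutamatergic nuclei (0.858, 0.785 to 0.937). Gabra5 was 0.747 (0.577 to 0.962) in Zic GABAergic nuclei. Gabrb2 was 0.868 (0.796 to 0.945) in upper layer, 0.908 (0.844 to 0.976) in other glutamatergic and 0.857 (0.739 to 0.992) in SPN nuclei, and 1.19 (1.02 to 1.39) in other GABAergic and 1.249 (1.02 to 1.53) in astrocyte nuclei. Gabrb1 was 1.13 (1.06 to 1.21) in upper layer and 1.12 (1.01 to 1.23) in SPN nuclei, and 0.835 (0.732 to 0.952) in Lhx6 interneuron nuclei. For Gabra3 and Gabrg1 the interval included 1 in each class where they could be compared, although Gabrg1 was at 1.22 (1.04 to 1.44) over all GABAergic nuclei together. Their ratios over all neuronal nuclei were 1.08 (0.983 to 1.18) and 1.1 (0.986 to 1.24).

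Over all kept nuclei, without regard to class, Gabra4 (0.862), Gabra5 (0.835) and Gabrb2 (0.863) were lower in stroke, while within neuronal nuclei they were 0.958, 0.960 and 0.933. Neuronal classes made up 4822 of 6817 kept nuclei in sham and 2727 of 5054 in stroke, so the mixture of classes moved with the first set of ratios. Its part in them was not tested beyond the values within classes.

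**Figure D4:**
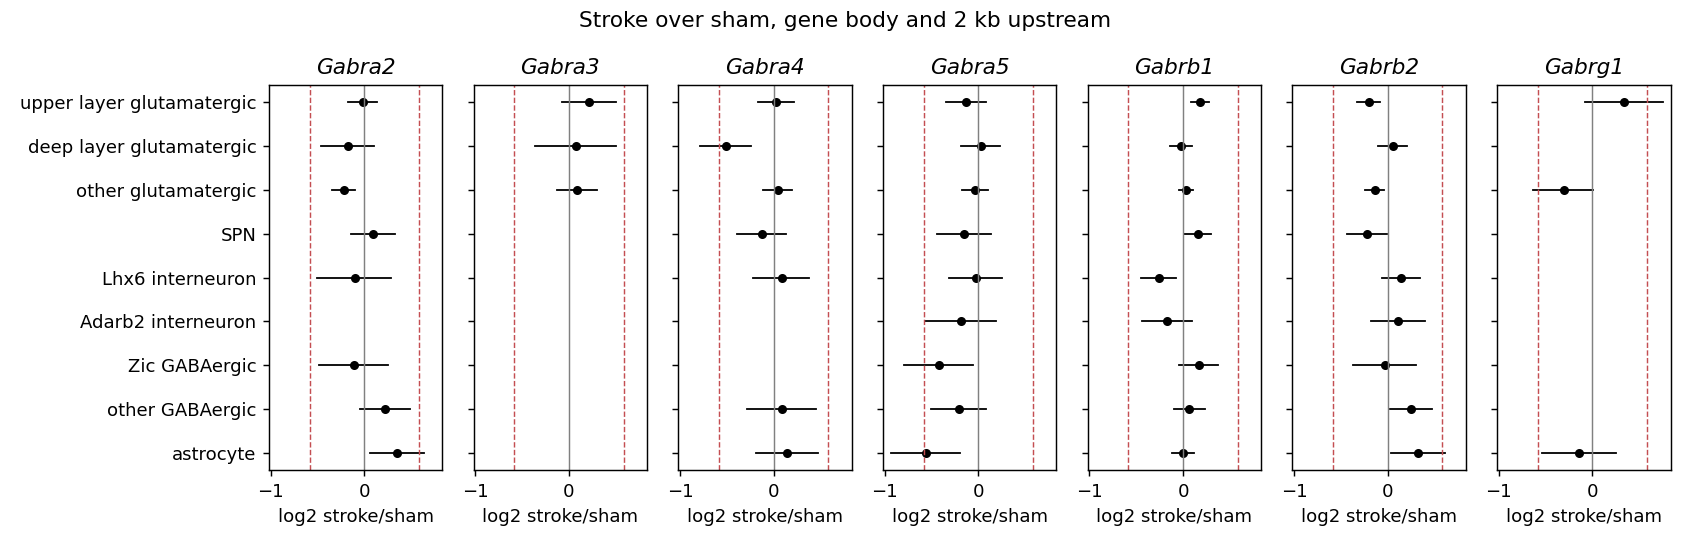
Stroke over sham ratios (horizontal axes, log2) of each gene in the neuronal classes and astrocyte nuclei (rows) where it could be compared, with exact 95% intervals and dashed lines at 1.5-fold. No value lies past them, and the lowest are Gabra5 in astrocyte nuclei (ratio 0.677) and Gabra4 in deep layer nuclei (0.701).

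Among the other 26 receptor genes, 8 of 157 pairs of a gene and a class were past the fold (5.10%), beside 5.57% of the pairs over all genes. Gabrd, whose delta subunit partners alpha4 in extrasynaptic receptors, was lower in stroke in deep layer nuclei (0.619, 0.454 to 0.835) and other glutamatergic nuclei (0.648, 0.547 to 0.766), and stood at 0.657 (0.608 to 0.709) over all kept nuclei. It was not past the fold in upper layer (0.917, 0.767 to 1.09) or SPN nuclei (0.751, 0.586 to 0.954), nor over all glutamatergic (0.712, 0.636 to 0.796) or all neuronal nuclei (0.714, 0.652 to 0.781). Nlgn2, an adhesion protein of inhibitory synapses, was 1.58 in Zic GABAergic nuclei. The other 5 were in small classes where 16.0% and 33.7% of all genes were past the fold, among them Gabrg3 (1.97) in oligodendrocyte nuclei, and Gabrg3 (1.70), Gphn (1.93) and Gabbr2 (0.590) in microglia/myeloid nuclei.

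Single windows hold far fewer fragments than whole genes, so their ratios spread more from counting alone. In all glutamatergic nuclei, 25 open windows of the members (2 of them an overlap of Gabra4 with Gabrb1) had at least 200 fragments and were compared, and 1 was higher and 3 were lower in stroke past 1.5-fold, where 8.18% of open windows of other genes were past the fold, 7.46% lower and 0.724% higher. The median ratio was 0.867 in the members' windows and 0.835 in the others. Both lower windows of Gabra5 lay deep in the gene: at 87.1 kb the level was 4.39 CPM (161 fragments) in sham and 2.02 CPM (39 fragments) in stroke, a ratio of 0.459 (0.315 to 0.655), and at 38.6 kb it was 4.31 and 2.17 CPM, a ratio of 0.504 (0.350 to 0.712). Each held 200 fragments in all, exactly the minimum, and sham nuclei give most of the fragments, so windows as low in stroke reach the minimum only where sham is high. Within deep layer nuclei the ratio at 87.1 kb was 0.446 (0.230 to 0.807), and within other glutamatergic nuclei it was 0.527 (0.309 to 0.866). At 38.6 kb it was 0.426 (0.256 to 0.683) in other glutamatergic nuclei and 0.824 (0.428 to 1.5) in upper layer nuclei. The Gabra5 windows at 35.6 kb (0.920) and at the promoter (0.854) did not pass the fold, and the whole gene was at 0.997 (0.930 to 1.07). Glutamatergic stroke nuclei had a lower share of fragments in peaks, with medians of 37.3%, 34.1% and 34.9% in upper layer, deep layer and other glutamatergic nuclei beside 42.1%, 39.0% and 43.2% in sham. The part of that difference in the lower windows was not tested.

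Of 45 windows of the members with 50 fragments or more but under 200, 3 were higher and 4 lower past the fold with intervals clear of 1, beside 6.16% higher and 8.42% lower of 4906 such windows of other genes. The higher ones were Gabrb1 at 103.25 kb (2.76, 1.73 to 4.43, over 33 and 48 fragments) and at 312.25 kb (1.90, 1.09 to 3.29), and Gabra3 at 65.4 kb (2.20, 1.24 to 3.92). The lower ones were Gabra3 at 93.9 kb (0.483), Gabra2 at 70.0 kb (0.647), and 2 neighbouring windows before the Gabrb1 start, on the side of Gabra4 (0.550 and 0.581).

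Gabra2 held windows that moved in both directions. The window 34.0 kb from the start was at 0.657 (0.501 to 0.856) and the window at 84.5 kb at 1.57 (1.18 to 2.09), from 3.03 to 4.75 CPM, while the window at 100.002 kb was at 0.867 (0.669 to 1.12). Within classes, the window at 84.5 kb was at 1.16 (0.816 to 1.65) in other glutamatergic nuclei, which held most of its fragments, and at 2.12 (1.17 to 3.82) in upper layer nuclei. The window at 34.0 kb was at 0.524 (0.355 to 0.758) in other glutamatergic and 0.717 (0.441 to 1.13) in upper layer nuclei. In astrocyte nuclei, the Gabrb1 window at 74.75 kb had 65 fragments in sham and 44 in stroke, a ratio of 0.470 (0.313 to 0.699), from fewer fragments than the minimum used above, and the window at 75.25 kb was at 0.664 (0.468 to 0.942). Those at 410.75 and 411.25 kb were at 1.04 and 1.39, with intervals that include 1.

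Likeness of pattern was measured by Pearson's r of log2(CPM + 1) over 25 points, each a class in a library with at least 50 nuclei, among 17962 genes. The points share libraries and depth, so r is a description. Rims1 (r = 0.938), Ica1 (0.931) and Nbea (0.931) were most like Gabrb2, and over the 18 points of neuronal and astrocyte classes alone these r were 0.935, 0.904 and 0.871. Rims1 encodes an active zone protein. Ralyl (0.818), Tmem200a (0.817) and Rtbdn (0.812) were most like Gabra3, with 0.908, 0.816 and 0.804 over the 18 points. Gfra1 (0.794), Crb1 (0.761) and Irs4 (0.756) were most like Gabrg1, with 0.904, 0.662 and 0.590 over the 18 points. Gfra1 encodes a receptor of glial cell line derived neurotrophic factor. Phyhip (0.897), Lin7a (0.891) and Sntg2 (0.890) were most like Gabra2, and their r fell to 0.636, 0.829 and 0.719 over the 18 points. Atxn7l1 (0.933), Sycp2 (0.930) and Dclk1 (0.917) were most like Gabra4, and fell to 0.635, 0.649 and 0.726. Nyap1 (0.937) and Celf4 (0.928) were among the genes most like Gabra5, with 0.914 and 0.814 over the 18 points. For Gabrb1 the leading genes were Snph (0.927), Dclk1 (0.926) and Nme7 (0.919), and over the 18 points their r was 0.565, 0.0796 and 0.249. Among the members themselves over the 18 points, Gabra5 and Gabrb2 had the highest r (0.736) and Gabrb2 and Gabrg1 the lowest (-0.68).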

How the data were processed

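Per the labels, nuclei from pooled frozen brain tissue were profiled with the 10x Next GEM ATAC v2 chemistry, 1 sham and 1 stroke library. The submitters' processing notes name Cell Ranger ATAC 2.1.0 and mm10 with a Cell Ranger ARC reference. The deposited files hold, as the authors made them, the fragments of each barcode with a count of read pairs, and a table of counts per barcode with the cell calls. Each deposited fragment was counted once. Gene regions came from GENCODE M21.

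Barcodes called as cells with over 20% of fragments in peaks were kept, and fragments overlapping a gene body or the 2 kb upstream were scaled to 1000000 fragments of the same nuclei. Nuclei were gated on marker lists. Bins of 2000 bases (the top 20%, 261341 bins, GABA receptor loci left out) were reduced by latent semantic indexing (components 2 to 30), and marker fragments were summed over 30 neighbours. The cuts, on the ratio to all kept nuclei, were 1.2 for glutamatergic with at most 0.6 for GABAergic, 1.5 for GABAergic, 1.3 for layers and 2.0 for the other lists. They were set after the marker values had been seen. No doublets were removed; leaving out the deepest 5% of nuclei was an alternative. The genes, lists and windows were chosen with earlier results of these data known. All 7 genes were named in each class, other receptor genes where past 1.5-fold, the 3 genes most correlated with each member, and the open window outside the promoter with the highest CPM in a neuronal class.

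With 1 library per condition no test across samples was made. Values carry exact 95% Poisson intervals and ratios exact conditional binomial intervals. A gene was past the fold at 1.5 among genes with at least 200 fragments. Correlations used a pseudocount of 1 CPM. The ratio, its interval and the fold call were tested on simulated gene counts. The counting of fragments was not part of that test. Python 3.11, NumPy 2.4.6, SciPy 1.17.1, pandas 2.3.3, scikit-learn 1.9.0 and matplotlib 3.10.9 were used. Alternatives were a filter of 1000 to 100000 fragments in peaks from the methods, a stricter gate, the promoter alone (1 kb to each side) and scaling to fragments in genes. Others were thinning to 5000 fragments, a minimum of 50 fragments and, chosen after seeing the data, a gate without neighbours. In the stricter gate the GABAergic, layer and other list cuts were multiplied by 1.25. The GABAergic ceiling of glutamatergic nuclei was divided by 1.25, and the glutamatergic cut was raised by a smaller factor. Values of some genes of the receptor list are not reported here, although the counts include them.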

Additional observations from a re-analysis of the deposited data

Results flagged for a closer look

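Gabra2, Gabrb1 and Gabrb2 moved in opposite directions between stroke and sham in a pair of classes, with counting intervals that left out 1 on both sides. Gabra2 had a ratio of 1.27 in astrocyte nuclei and 0.858 in other glutamatergic nuclei. Gabrb1 was at 1.13 in upper layer nuclei and 0.835 in Lhx6 interneuron nuclei. Gabrb2 was at 1.249 in astrocyte nuclei and 0.274 in microglia/myeloid nuclei, the latter from 31 fragments in 21 sham nuclei. At thinned depth that ratio was 0.398 (0.157 to 1.29). Among neuronal classes Gabrb2 was at 1.19 in other GABAergic and 0.868 in upper layer nuclei. With 1 library per condition, the difference between the classes was not tested. No share over all genes is given for this rule, so it does not set the members apart.

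Called stroke barcodes with at most 20% of fragments in peaks, 3686 in number, entered no comparison. Gabra3 stood at 41.6 CPM in them, beside 22.3 CPM in kept sham and 22.2 CPM in kept stroke nuclei. Gabrb1 stood at 222 CPM beside 199.7 and 192 CPM, and Gabrg1 at 31.3 CPM beside 16.4 and 17.8 CPM. Per kb, Gabra3 had 0.184, Gabrb1 0.451 and Gabrg1 0.335 CPM in these barcodes, each below the median gene at 0.459. The other 4 genes were not above kept sham nuclei, and Gabra5 was lower, at 32.5 CPM beside 61.7 and 51.5 CPM. The 162 sham barcodes not kept had 42.7 CPM of Gabra3, 167 CPM of Gabrb1 and 15 CPM of Gabrg1.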

How the results depend on the processing

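No paired analysis was possible because sham and stroke were 1 library each, which also kept any library from being left out. The count of members past 1.5-fold between stroke and sham, 1 of 51, was 0 with the filter on fragments in peaks added (48 pairs), 0 with the promoter only (3 pairs), 0 without the deepest 5% of nuclei (46 pairs) and 0 at thinned depth (26 pairs), all with fewer pairs compared, where 5.52%, 5.17%, 5.39% and 4.2% of pairs over all genes were past the fold. It was 5 of 48 under the gate without neighbours, chosen after seeing the data, where 6.77% of pairs over all genes were past the fold, and 10 of 77 at a minimum of 50 fragments, where 14.4% were. Of those 10, 4 had intervals that include 1, and 1 had 0 sham fragments. For the other receptor genes, 8 of 157 became 2 of 40 with the promoter only, 2 of 87 at thinned depth and 35 of 254 at the minimum of 50, beside the same shares over all genes. The genes with the same leading class in both libraries, 4 of 7, were 2 without the deepest 5%. Open windows fell from 74 to 29 at a threshold of 8 times the mean. Under the stricter gate 1 of 42 pairs of a member and a class was past the fold, beside 6.99% of pairs over all genes. That pair was Gabra4 in deep layer nuclei, at 0.591 (0.436 to 0.790). Of the stroke over sham ratios of single members in neuronal and astrocyte classes, 30 of 48 left their interval with the promoter only, 9 of 48 under the stricter gate, 8 of 48 at thinned depth and 3 of 36 under the gate without neighbours, and 0 of those past the fold could reverse, since none was. Between classes, the astrocyte over neuronal ratio of Gabrb1 went from 1.19 and 1.15 to 0.968 and 0.862 with the promoter only, and that of Gabra2 in stroke from 0.722 to 1.36. The cause of these changes was not tested. The Gabra5 window at 87.1 kb ranged from 0.418 to 0.526 and that at 38.6 kb from 0.282 to 0.592 over 4 alternatives. The Gabra2 window at 34.0 kb was not past the fold under the stricter gate (0.676), and its interval included 1 under the gate without neighbours (0.666, 0.392 to 1.09). That at 84.5 kb ranged from 1.57 to 1.84.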
